A study of Homo sapiens with 52 samples.

Results

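The 9 complement components C3, C5, CFB, CFD, C1QA, C1QB, C1QC, MBL2 and C1S were followed in 52 RNA-seq libraries from 2 liver tumour lines and 1 macrophage model. They were picked by gene symbol, and each had 1 row in the count table of the tumour lines (62696 genes) and 1 row in the count table of the macrophages (61209 genes). HepG2 and Huh6 are human hepatoblastoma cell lines; their 31 libraries came from cells kept for 48 h in empty vehicle, in PKF118-310 or in iMDK. PKF118-310 is a small-molecule antagonist of the binding of TCF to beta-catenin, the step that drives Wnt target genes, and iMDK is an inhibitor of the growth factor midkine (MDK). Huh6 received PKF118-310 at 0.2, 0.3 and 0.4 uM and iMDK at 5 and 10 uM. HepG2 received PKF118-310 at 0.2 and 0.3 uM and iMDK at 5 and 10 uM. THP-1 is a human monocytic leukaemia line, here made into macrophages with the phorbol ester PMA (80 ng/ml, 48 h), followed by a rest of 48 h. Its 21 libraries came from macrophages grown alone, or sorted after 24 h in direct contact with HepG2 or Huh6 cells that were untreated or had been given 5 or 10 uM iMDK for 24 h. There were 3 libraries a group, apart from the single library of HepG2 with 0.3 uM PKF118-310. The labels do not say whether the 3 libraries of a group came from separate cultures, so the p-values measure the spread between libraries, which may be technical.

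Complement is a cascade of plasma proteins made mainly by hepatocytes, with local supply by macrophages, that tags targets for uptake and lyses cells. The classical pathway starts when C1q (the products of C1QA, C1QB and C1QC, made chiefly by macrophages) binds a target and activates the proteases C1r and C1s. The lectin pathway starts with mannose-binding lectin (MBL2), and the alternative pathway is built by factor B (CFB) and its protease factor D (CFD). All routes cleave C3, the central and most abundant component, and then C5, which releases a chemoattractant peptide and begins the membrane attack complex.

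Total counts per library were 18172462 to 19912509 in Huh6, 18284605 to 20043105 in HepG2 and 12623973 to 16940245 in THP-1. The hepatoblastoma markers were abundant in both tumour lines, with a summed level of 22740 to 23080 CPM (counts scaled to the TMM-adjusted library size) in Huh6 vehicle libraries and 39010 to 42040 CPM in HepG2 vehicle libraries. Of 12 macrophage markers, 11 had counts in THP-1 alone, with a summed level of 4460 to 4720 CPM. CFB and C1QA were listed at 0 in all 52 libraries, and C1QB and C1QC were listed at 0 in all 31 tumour libraries. Other genes that such cells are known to use were listed at 0 as well, among them VTN (vitronectin) and HP (haptoglobin) in HepG2 and CD68 in THP-1. A listed 0 may therefore be a gene to which no reads were assigned, and this was not tested. Of the 9 genes, 5 had any count in Huh6, 5 in HepG2 and 7 in THP-1, and the low-count filter left 4, 5 and 6 of them for testing. No statement is made on CFB or C1QA beyond the listed 0.

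The start regions of 3 of these genes are printed because C5 and MBL2 fell together in HepG2 under PKF118-310 while CFD did not pass the test there. RefSeq promoter windows (GRCh38.p14) were found for 6 of the 9 genes, and C3, C1S and C1QC had none in the table used. Each line gives the 250 bases before the start, 5′ to 3′ on the strand of the gene. Capitals mark C/EBP (TTGCNNAA) and STAT (TTCNNNGAA) sequences, the letters bound by 2 families of factors known from acute-phase genes.
C5, chr9:121050276-121050525, minus strand: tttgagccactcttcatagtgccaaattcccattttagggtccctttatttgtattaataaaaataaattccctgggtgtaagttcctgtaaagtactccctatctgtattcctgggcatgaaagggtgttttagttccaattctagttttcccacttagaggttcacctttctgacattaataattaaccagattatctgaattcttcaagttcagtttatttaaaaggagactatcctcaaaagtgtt
MBL2, chr10:52772785-52773034, minus strand: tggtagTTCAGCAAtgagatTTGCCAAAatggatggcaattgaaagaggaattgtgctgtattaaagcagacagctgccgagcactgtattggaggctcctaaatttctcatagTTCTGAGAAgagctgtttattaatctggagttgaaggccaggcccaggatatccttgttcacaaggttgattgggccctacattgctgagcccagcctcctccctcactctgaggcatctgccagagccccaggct
CFD, chr19:859414-859663, plus strand: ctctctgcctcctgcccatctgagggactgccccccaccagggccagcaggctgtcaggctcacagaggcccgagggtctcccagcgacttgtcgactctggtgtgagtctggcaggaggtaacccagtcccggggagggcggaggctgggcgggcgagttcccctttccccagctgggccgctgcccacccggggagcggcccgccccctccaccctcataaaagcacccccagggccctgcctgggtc
The printed MBL2 window held 2 C/EBP sequences, beginning 244 and 230 bases before its RefSeq start, and 1 STAT sequence at 136 bases. The C5 and CFD windows held neither. Of 35116 windows of this length, 9.05% held the C/EBP letters and 6.57% the STAT letters on either strand. A TCF/LEF sequence (CTTTGAT, in 2.26% of windows, also searched on both strands) was in none of these 3 windows. RefSeq lists a further start for C5 and one for MBL2, and those windows held none of the 3 motifs. For MBL2 that window without motifs, 52771653 to 52771902, is the one that holds the GENCODE gene start, 52771700. The printed MBL2 window lies upstream of that gene start, so its matches are not at the start of the gene as located below. The printed window of MBL2 was chosen after the matches were seen, and the matches describe letters only.

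C3 was the most abundant of the tested components per kilobase of exon in HepG2 cells, and HepG2 differed from Huh6 in all 5 components that were tested between the lines. The gene for C3 lies on the minus strand of chromosome 19 (6677704 to 6730562 in GENCODE 29, GRCh38). It stood at 4956, 4406 and 4530 CPM in the 3 HepG2 vehicle libraries and at 59.7, 61.5 and 62.1 CPM in the 3 Huh6 vehicle libraries. The lines did not overlap, and the log2 fold change of HepG2 over Huh6 was 6.22 ± 0.04 (SE; edgeR quasi-likelihood test, adjusted p = 1.35e-68). This adjusted p, like the others here, was corrected by the Benjamini-Hochberg method over all genes of the fit, with a threshold of 0.05. In that comparison 75.8% of 17572 genes passed, so 5 of 5 is read against a background in which most genes differed. Of the 5, MBL2 passed the low-count filter of that fit only through its HepG2 counts. C5 (chromosome 9, 120952335 to 121050276, minus strand) was higher in HepG2 as well, with 369, 335 and 348 CPM against 95.4, 102 and 94.3 CPM, a log2 fold change of 1.83 ± 0.04.

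MBL2 (chromosome 10, 52765380 to 52771700, minus strand), the recognition protein of the lectin pathway, was close to absent from Huh6. HepG2 vehicle libraries held 239, 243 and 265 counts of MBL2, and Huh6 vehicle libraries 1, 0 and 0. The ratio of the summed CPM was 760, with a 95% exact interval of 136 to 30000 that covers counting error only. C1S, the protease of the C1 complex, went the other way. Its 72.4, 79.0 and 75.4 CPM in Huh6 were above the 23.8, 24.4 and 27.1 CPM in HepG2, and HepG2 was lower by 1.62 on the log2 scale (log2 fold change -1.62 ± 0.06). The C1S gene (chromosome 12, 6988259 to 7071032, plus strand) shares its span with other annotated genes. CFD (chromosome 19, 859643 to 863630, plus strand) was also lower in HepG2, at 10.2, 8.74 and 10.7 CPM against 21.2, 17.2 and 18.8 CPM, a log2 fold change of -0.97 ± 0.10.

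Per kilobase of exon, the order of the components differed between the lines. In HepG2 vehicle libraries C3 led with 556 ± 34.7 CPM per kb (SD, n = 3), followed by C5 with 53.7 ± 2.63 and CFD with 8.09 ± 0.83. C1S and MBL2, at 3.88 ± 0.28 and 3.78 ± 0.39 CPM per kb, did not differ beyond their spread. In Huh6 vehicle libraries CFD and C5 stood at 15.6 ± 1.63 and 14.9 ± 0.63 CPM per kb, which is within their spread. C1S followed with 11.7 ± 0.51 and C3 with 7.34 ± 0.15 CPM per kb.

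**Figure D1:**
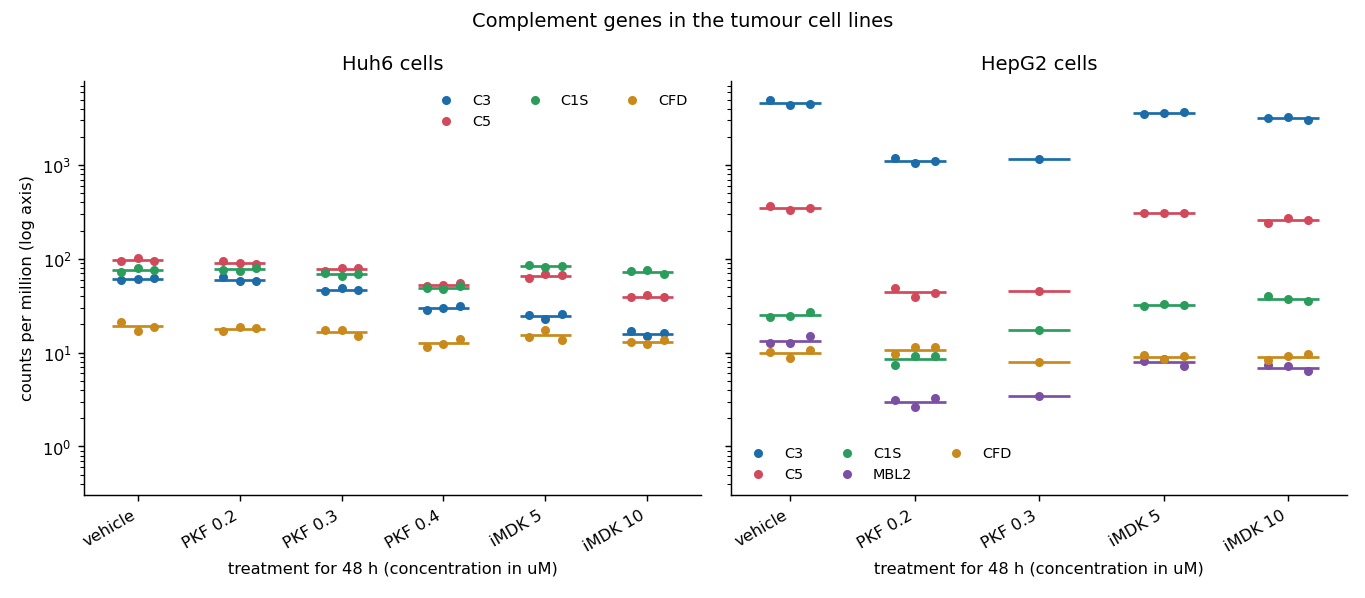
Level of each detected complement gene in CPM (log axis) in Huh6 (left) and HepG2 (right) by treatment group; each point is 1 library and each bar the group mean. C3 lies near 4631 CPM in HepG2 vehicle and near 61.1 CPM in Huh6 vehicle, and HepG2 at 0.3 uM PKF118-310 has 1 library.

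In HepG2, 0.2 uM PKF118-310 lowered 4 of the 5 tested components, C5 most. C5 went from 369, 335 and 348 CPM in vehicle to 48.7, 39.5 and 43.6 CPM, a 7.98-fold lower level (log2 fold change -3.00 ± 0.05, adjusted p = 7.06e-37, edgeR). C3 went to 1178, 1059 and 1110 CPM, 4.15-fold below vehicle (log2 fold change -2.05 ± 0.04). MBL2 went from 12.7, 12.7 and 15.1 CPM to 3.12, 2.66 and 3.27 CPM (log2 fold change -2.15 ± 0.13). C1S went from 23.8, 24.4 and 27.1 CPM to 7.40, 9.15 and 9.12 CPM (log2 fold change -1.55 ± 0.09). None of these 4 genes overlapped between the groups. That is not read as particular to them, as the share of all genes without overlap was not counted. CFD, with 9.66, 11.4 and 11.4 CPM, overlapped its vehicle range and did not pass (log2 fold change 0.13 ± 0.10, adjusted p = 0.27). The treatment changed 67.7% of 15451 genes, and the median log2 fold change of the 5 components was -2.05 against 0.0062 over all genes. All 21 hepatoblastoma markers fell in the same comparison, with a median of -2.07, their summed level going from 39010 to 42040 CPM down to 11350 to 12340 CPM, and their part in the result was not tested. Fewer transcripts per cell and a change in the make-up of the culture cannot be told apart in bulk RNA.

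The single HepG2 library at 0.3 uM PKF118-310 had 1166 CPM of C3, 45.1 of C5, 3.45 of MBL2, 7.95 of CFD and 17.3 of C1S. C3, C5 and MBL2 were close to the 0.2 uM libraries, whereas C1S was above all 3 of them and below all 3 vehicle libraries. With 1 library no test was made.

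In Huh6 the same compound gave a graded fall. At 0.2 uM, 0 of 4 tested components passed, 1 had an unadjusted p under 0.05 (C5), DESeq2 also called 0, and 2.24% of 15029 genes passed. At 0.3 uM 3 of 4 components passed against 28.5% of all genes, and at 0.4 uM 4 of 4 against 56.8%, all lower. C3 stood at 63.4, 58.5 and 57.8 CPM at 0.2 uM, at 45.5, 49.0 and 46.3 CPM at 0.3 uM and at 28.6, 29.7 and 31.5 CPM at 0.4 uM. Its log2 fold changes against vehicle were -0.03 ± 0.05, -0.38 ± 0.05 and -1.03 ± 0.06. C5 had 51.2, 52.2 and 54.9 CPM at 0.4 uM, a log2 fold change of -0.88 ± 0.04. C1S fell to 49.1, 48.0 and 51.0 CPM at 0.4 uM (log2 fold change -0.61 ± 0.04). CFD fell to 11.6, 12.4 and 14.1 CPM (log2 fold change -0.59 ± 0.09), below all 3 vehicle libraries. At 0.3 uM the log2 fold change of C1S was only -0.14 ± 0.04 (adjusted p = 0.0097, edgeR), and without vehicle replicate 2 or without 0.3 uM replicate 2 it no longer passed (adjusted p = 0.10 and 0.079). CFD at 0.3 uM did not pass (log2 fold change -0.21 ± 0.09, adjusted p = 0.077, edgeR) but did without vehicle replicate 2 (adjusted p = 0.032). Between 0.2 and 0.4 uM, 4 of 4 components fell, beside 54.6% of genes that changed. Hepatoblastoma markers moved with these components, with 17 of 20 tested markers lower at 0.4 uM and a median log2 fold change of -0.87, although their summed level, 21300 to 22410 CPM, was close to that of vehicle. Their part was not tested.

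At the matched dose of 0.2 uM the response of C3, C5 and C1S differed between the lines, in a test of the difference itself. The log2 fold change in HepG2 was below that in Huh6 by 2.91 for C5 (difference -2.91 ± 0.07, adjusted p = 3.70e-42, edgeR). The difference was -2.03 ± 0.06 for C3 and -1.59 ± 0.09 for C1S. For MBL2 the difference was -4.59 ± 1.17, but MBL2 passed the low-count filter of the joint fit only through its HepG2 counts. The MBL2 value rests on 1 and 7 summed counts in the Huh6 groups and is not read as a difference in response. Without 0.2 uM replicate 2 of Huh6 it no longer passed (adjusted p = 0.086, edgeR). CFD did not pass (difference 0.21 ± 0.14, adjusted p = 0.22). Of all genes, 49.9% differed between the lines in this test.

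**Figure D2:**
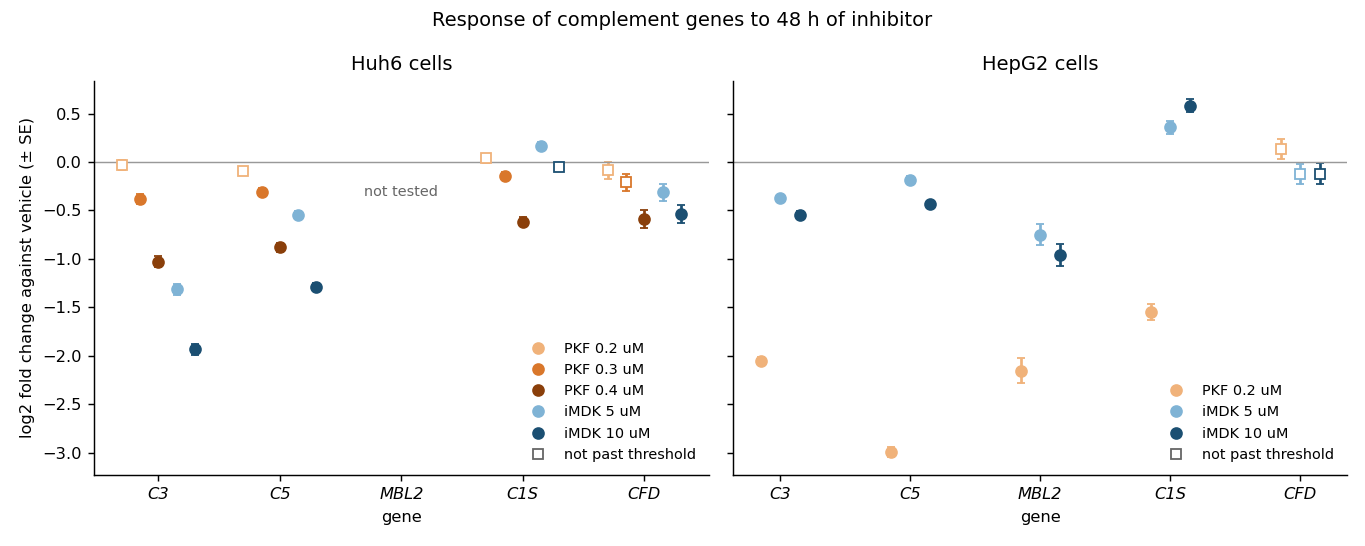
Log2 fold change against vehicle with its SE for each tested component in Huh6 (left) and HepG2 (right); filled circles passed the edgeR threshold and open squares did not. C5 and C3 in HepG2 lie at -3.00 and -2.05 at 0.2 uM PKF118-310, and C1S lies above 0 at both iMDK doses in HepG2.

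Under iMDK the components split, with C3 and C5 lower in both lines and C1S higher in HepG2. In Huh6, C3 fell from 59.7, 61.5 and 62.1 CPM to 25.03, 22.6 and 25.95 CPM at 5 uM and to 16.9, 14.97 and 16.03 CPM at 10 uM. Its log2 fold changes were -1.32 ± 0.06 and -1.94 ± 0.06 (adjusted p = 2.59e-28 at 10 uM, edgeR), the latter a 3.83-fold lower level. C5 fell to 63.3, 68.4 and 67.7 CPM at 5 uM and to 39.0, 40.7 and 39.4 CPM at 10 uM (log2 fold changes -0.55 ± 0.04 and -1.29 ± 0.05). CFD fell to 14.6, 17.6 and 13.8 CPM and to 13.2, 12.5 and 13.7 CPM (log2 fold changes -0.31 ± 0.09 and -0.54 ± 0.09). At 5 uM the CFD groups overlapped, and without vehicle replicate 1 or 5 uM replicate 3 the call was lost (adjusted p = 0.074 and 0.056). C1S was slightly higher at 5 uM, with 86.4, 82.6 and 84.9 CPM (log2 fold change 0.16 ± 0.04). At 10 uM it stood at 74.2, 75.2 and 68.9 CPM and did not pass (log2 fold change -0.05 ± 0.04, adjusted p = 0.30). Thus 4 of 4 components passed at 5 uM, against 35.6% of genes, and 3 of 4 at 10 uM, against 52.1%.

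In HepG2, 4 of 5 components passed at each iMDK dose, with C3, C5 and MBL2 lower and C1S higher. C3 went to 3506, 3555 and 3662 CPM at 5 uM and to 3208, 3293 and 3024 CPM at 10 uM, a log2 fold change of -0.37 ± 0.04 and -0.54 ± 0.04. C5 went to 309, 307 and 309 CPM and to 244, 270 and 262 CPM, a log2 fold change of -0.19 ± 0.04 and -0.44 ± 0.04. MBL2 fell to 8.11, 8.60 and 7.29 CPM and to 7.30, 7.15 and 6.33 CPM (log2 fold changes -0.75 ± 0.11 and -0.96 ± 0.11). C1S rose from 23.8, 24.4 and 27.1 CPM to 31.3, 32.8 and 32.3 CPM and then to 40.1, 37.0 and 35.7 CPM (log2 fold changes 0.36 ± 0.07 and 0.58 ± 0.07, adjusted p = 1.52e-09 at 10 uM, edgeR). The 3 levels of C1S did not overlap. CFD did not pass at either dose (9.35, 8.60 and 9.21 CPM at 5 uM, 8.45, 9.19 and 9.62 CPM at 10 uM). The background was 47.3% of genes at 5 uM and 54.6% at 10 uM. Of the interferon-stimulated genes tested in HepG2, 11 of 12 rose at 10 uM, with a median log2 fold change of 5.18, and 14 of 21 hepatoblastoma markers fell with a median over all 21 of -0.30. The part of either list in the components' changes was not tested.

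From 5 to 10 uM iMDK, C3, C5 and C1S fell in Huh6 (log2 fold changes -0.62 ± 0.07, -0.74 ± 0.05 and -0.22 ± 0.04), beside 24.9% of genes that changed. Over the same step in HepG2, C3 and C5 fell (-0.17 ± 0.04 and -0.25 ± 0.04) and C1S rose (0.23 ± 0.07), beside 13.4% of genes. The C1S step in HepG2 lost its call without 5 uM replicate 1 or 10 uM replicate 1 (adjusted p = 0.071 and 0.12, edgeR). The response to 5 uM differed between the lines for C3 (0.96 ± 0.06 on the log2 scale, less negative in HepG2), C5 (0.37 ± 0.06) and C1S (0.21 ± 0.08), against 29.1% of all genes. The C1S difference at 5 uM lost its call in 7 of the fits that each left out 1 library (without Huh6 vehicle replicate 2, Huh6 5 uM replicates 2 and 3, HepG2 vehicle replicates 1 and 2, or HepG2 5 uM replicates 2 and 3). At 10 uM the differences were 1.42 ± 0.07 for C3, 0.88 ± 0.06 for C5, 0.66 ± 0.08 for C1S and 0.45 ± 0.14 for CFD, against 36.9% of genes. The CFD difference at 10 uM fell just short without Huh6 vehicle replicate 1 or HepG2 vehicle replicate 2 (adjusted p = 0.052 and 0.050, edgeR).

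The other complement genes, a list of 51, mostly moved down in the tumour lines. In HepG2 at 0.2 uM PKF118-310, 27 of 32 tested members passed, 20 lower and 7 higher, beside 67.7% of all genes. The terminal components C8B and C8A, subunits of the membrane attack complex, had log2 fold changes of -4.205 and -3.10. Of 9 tested receptors 4 rose and 4 fell: C5AR1, the receptor for the C5 fragment C5a, rose by 3.53 ± 0.13 on the log2 scale, from 1.77 ± 0.25 to 20.7 ± 2.54 CPM (SD, n = 3), and ITGAX, a subunit of complement receptor 4, rose by 3.60 from a near-absent 0.07 ± 0.08 CPM. All 7 tested fluid-phase regulators fell, among them C4BPA (log2 fold change -2.75). Of the 4 tested membrane regulators 3 rose and 1 fell, with a median log2 fold change of 1.37. At 10 uM iMDK in HepG2, 26 of 32 passed, 19 lower and 7 higher, beside 54.6% of all genes, with log2 fold changes of -2.38 for C8B, 3.60 for C5AR1 and 5.61 for ITGAX. In Huh6, 24 of 27 passed at 0.4 uM PKF118-310 (16 lower, 8 higher), beside 56.8% of all genes, and 22 of 27 at 10 uM iMDK (18 lower, 4 higher), beside 52.1%. There MASP2, the lectin-pathway protease, had log2 fold changes of -2.12 and -2.34, and SERPING1, the C1 inhibitor, -1.41 and -1.53. C4A and C4B are near-identical copies, and the counting may split their reads, so neither is described.

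In THP-1 macrophages grown alone, CFD and C3 led the components per kilobase of exon. CFD stood at 91.5, 132 and 127 CPM and C3 at 136, 106 and 104 CPM. Per kilobase of exon CFD reached 95.6 ± 18 CPM per kb (SD, n = 3) and C3 13.9 ± 2.17. C1QC (chromosome 1, 22643630 to 22648110, plus strand) followed with 8.63 ± 3.16 CPM per kb, and C1QB (chromosome 1, 22652762 to 22661538, plus strand) reached only 0.54 ± 0.19. MBL2 had 2, 0 and 1 counts and was not tested.

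Macrophages sorted from culture with HepG2 had more C3, C5, CFD and C1S than macrophages alone. C3 rose to 508, 498 and 532 CPM (log2 fold change 2.15 ± 0.20, adjusted p = 5.48e-08, edgeR), a 4.43-fold higher level. C5 rose from 12.2, 15.3 and 12.1 CPM to 32.3, 36.4 and 40.2 CPM (1.46 ± 0.15 on the log2 scale). CFD rose to 218, 290 and 304 CPM (1.21 ± 0.19). C1S rose from 3.93, 5.98 and 6.19 CPM to 9.88, 11.6 and 11.1 CPM (1.02 ± 0.21). None of the 4 overlapped with macrophages alone. Here too that is not read as particular to them, as the share of all genes without overlap was not counted. C1QB and C1QC did not pass (adjusted p = 0.18 and 0.63). So 4 of 6 components passed, against 21.6% of 15500 genes.

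The hepatoblastoma markers rose in the same libraries, all 21 of them, from a summed 59.1 to 71.2 CPM in macrophages alone to 3175 to 3785 CPM, and the liver cell marker ALB (albumin) reached 905 ± 87.9 CPM (SD, n = 3). The 12 macrophage markers summed to 4570 to 4999 CPM. The share of reads from tumour cells in these libraries was estimated at 8.32% to 9.95%. The estimate is the median over 20 hepatoblastoma markers of the excess over macrophages alone, divided by the level in HepG2 vehicle cells. For the other co-cultures the matching tumour group was used, at the same iMDK dose where the partner had received iMDK, with 15 markers for Huh6. Subtracting that share of the HepG2 profile, on CPM without further scaling, took C3 from 515 ± 13.7 to 114 ± 46.7 CPM (SD, n = 3), beside 116 ± 20.4 in macrophages alone. C3 then no longer passed (log2 fold change 0.16, adjusted p = 0.77, edgeR). C5 went from 36.4 ± 2.35 to 5.99 ± 2.55 CPM, and its direction turned (log2 fold change -0.95, adjusted p = 0.014). CFD went from 271 ± 37.9 to 270 ± 37.8 CPM, HepG2 vehicle cells holding 9.89 CPM, and still passed (log2 fold change 1.40, adjusted p = 2.44e-05). C1S also passed (0.88, adjusted p = 0.010), at 8.73 ± 0.65 CPM. The subtraction takes co-cultured tumour cells to have the profile of tumour cells grown alone for 48 h, which was not tested. For partners given iMDK for 24 h, the profile was that of cells kept in iMDK for 48 h.

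With Huh6 as partner, 0 of the 6 tested components passed, against 1.83% of genes, and DESeq2 also called 0. Unadjusted p was under 0.05 for 2 of them (CFD and C1QB). Neither fit held the replicate number, and same-numbered THP-1 libraries shared an effect. With that number added to the edgeR fit (the replicate block), CFD, C1QB and C1QC passed (adjusted p = 0.0026, 0.0047 and 0.044). Over all genes 927 then passed in place of 283. C3 was at 118, 86.7 and 95.8 CPM and C5 at 13.4 to 16 CPM, both overlapping macrophages alone. CFD was at 132, 171 and 184 CPM, each above the 3 libraries of macrophages alone, the lowest by under 1 CPM (log2 fold change 0.48 ± 0.19, adjusted p = 0.29). Hepatoblastoma markers summed to 173 to 519 CPM, an estimated 0.39% to 1.68% of reads. Compared directly, macrophages from HepG2 culture had more C3 (2.35 ± 0.20 on the log2 scale), C5 (1.32 ± 0.15), CFD (0.73 ± 0.19, adjusted p = 0.0087) and C1S (0.72 ± 0.21) than those from Huh6 culture, 4 of 6 against 16.7% of genes. After subtraction CFD and C1S still passed (log2 fold changes 0.90 and 0.73), C3 did not (0.35, adjusted p = 0.48), and C5 turned to -1.02. The C1S call was also lost without HepG2 replicate 2 or Huh6 replicate 1 (adjusted p = 0.080 and 0.11, edgeR). These comparisons share libraries with those against macrophages alone.

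**Figure D3:**
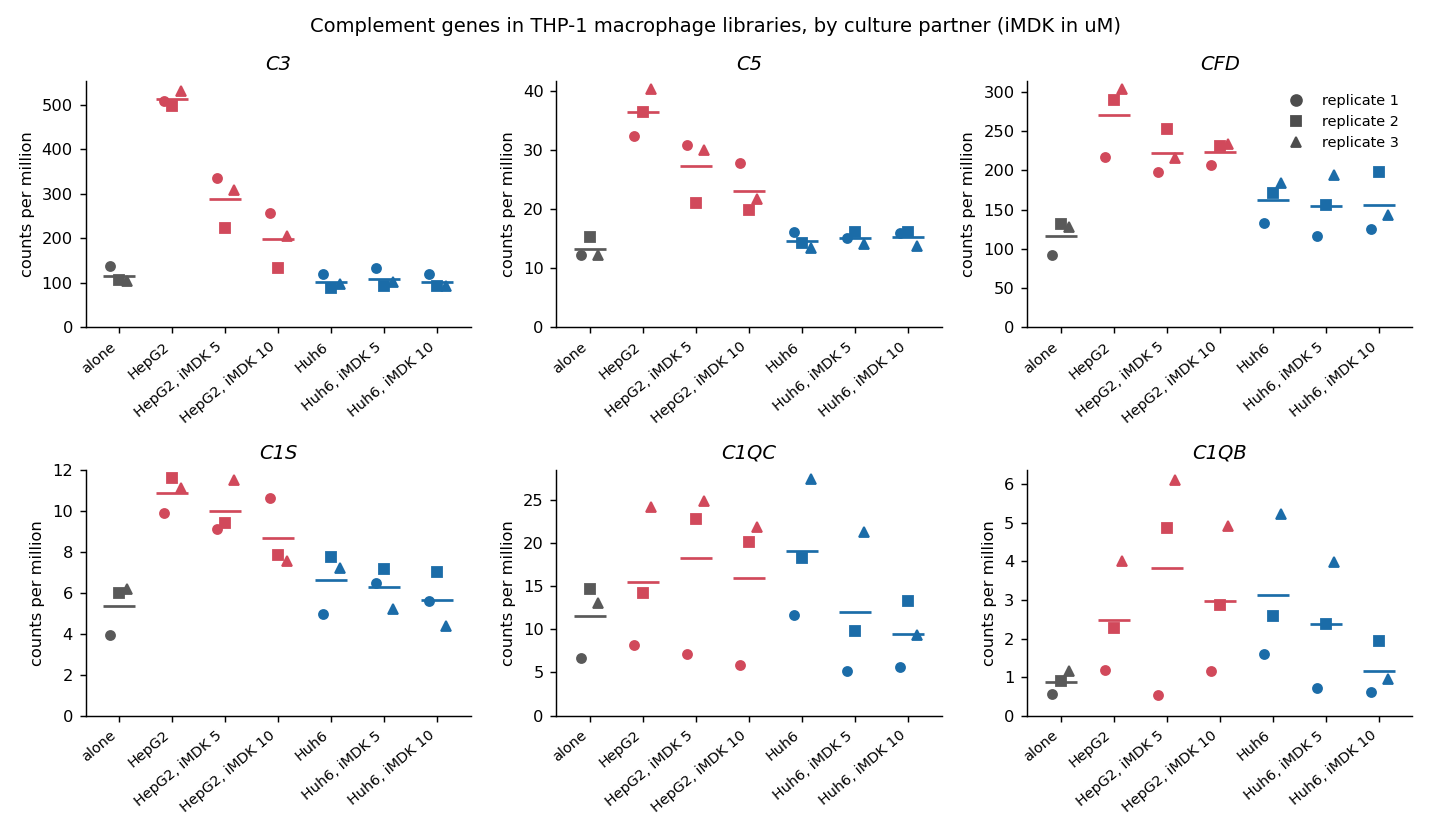
Level in CPM of the 6 components tested in THP-1, by culture partner and iMDK pretreatment of that partner; each point is 1 library, its shape the replicate number and each bar the group mean. C3, C5 and CFD are highest with untreated HepG2, and C1QC and C1QB are lowest in replicate 1 in each of the 7 groups.

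**Figure D4:**
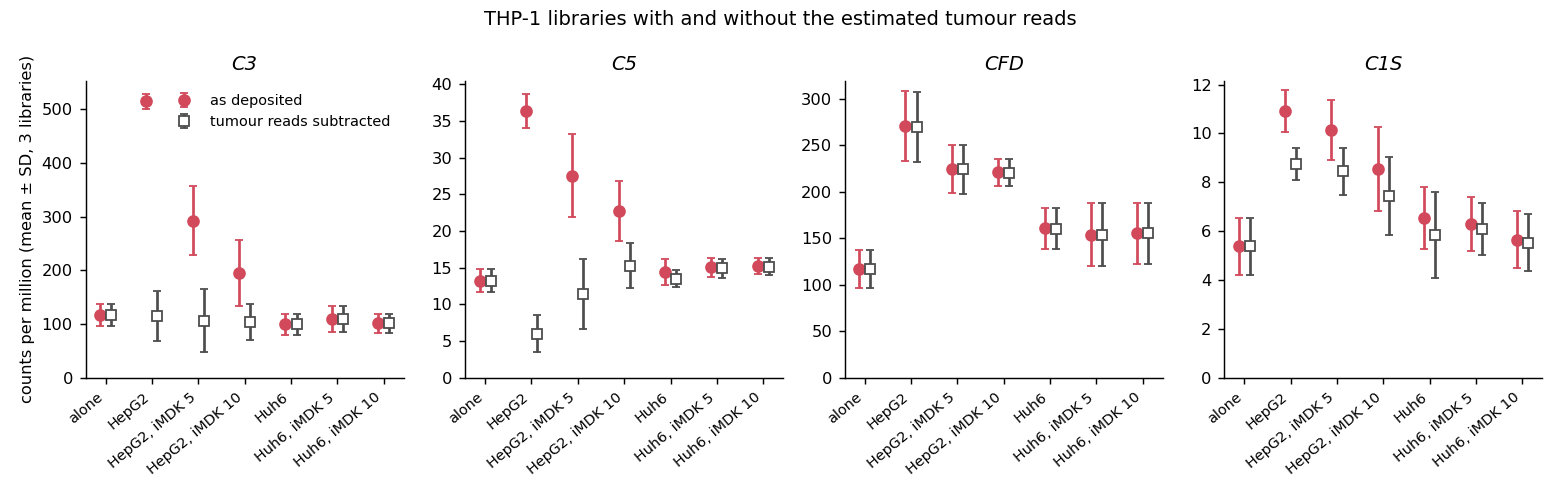
Mean ± SD of 3 THP-1 libraries, in CPM without further scaling, before (circles) and after (squares) subtraction of the estimated tumour reads. C3 with untreated HepG2 goes from 515 to 114 CPM, C5 from 36.4 to 5.99 CPM, and CFD stays near 270 CPM.

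When the HepG2 partner had received iMDK, C3 and C5 in the macrophage libraries were lower. With 10 uM, C3 stood at 256, 132 and 206 CPM against 508, 498 and 532 CPM (log2 fold change -1.37 ± 0.19, adjusted p = 0.00064, edgeR). C5 stood at 27.7, 19.8 and 21.7 CPM (-0.65 ± 0.15, adjusted p = 0.014), and it lost its call without untreated replicate 2 or without 10 uM replicates 2 or 3. Both genes lay below all 3 libraries with untreated HepG2. So 2 of 6 components passed, against 3.34% of genes. The hepatoblastoma sum fell in the same libraries to 657 to 1313 CPM, an estimated 1.66% to 3.50% of reads. After subtraction C3 did not pass (log2 fold change -0.23, adjusted p = 0.75) and C5 turned upward (1.24, adjusted p = 0.0075). CFD, at 207, 232 and 234 CPM, did not pass (log2 fold change -0.27 ± 0.18, adjusted p = 0.50), nor did it after subtraction (-0.40, adjusted p = 0.25, edgeR). With subtraction and the replicate block together, a setting chosen after the data were seen, CFD passed as lower (-0.38, adjusted p = 0.012, edgeR).

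With 5 uM, 0 of 6 passed in the edgeR test against 0.0903% of genes. C3 was at 336, 222 and 308 CPM (log2 fold change -0.83 ± 0.19, adjusted p = 0.083), with an unadjusted p under 0.05 for 2 components, and DESeq2 called C3 alone. With the replicate block C3 passed in edgeR (adjusted p = 7.07e-05). After subtraction of tumour reads C3 did not pass (log2 fold change -0.20, adjusted p = 0.87, edgeR). C5 turned upward after subtraction (0.83, adjusted p = 0.13). CFD passed as lower only with subtraction and the replicate block together (log2 fold change -0.35, adjusted p = 0.033, edgeR). The hepatoblastoma sum was 1828 to 2403 CPM. With Huh6 as partner 0 of 6 components passed at 5 uM (0.0129% of genes) or at 10 uM (0.0581%). In both, 0 had an unadjusted p under 0.05 and DESeq2 called 0. With the replicate block, C1QC passed at 10 uM (adjusted p = 0.033, edgeR). The difference of the 10 uM response between the partners passed for 0 of 6 components, against 0.0323% of genes; 2 had an unadjusted p under 0.05, and DESeq2 called 1, C3 (edgeR difference -1.38 ± 0.27, adjusted p = 0.12). Without replicate 1 of the 10 uM HepG2 group C3 passed in edgeR as well (adjusted p = 0.019), as it did with the replicate block (adjusted p = 1.84e-05). After subtraction of tumour reads the C3 difference was -0.22 and did not pass (adjusted p = 0.93, edgeR).

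C1QC and C1QB, listed at 0 in the tumour lines, were lowest in replicate 1 of each of the 7 groups, and no comparison passed for either in the fit of group means. C1QC had 6.74, 14.7 and 13.1 CPM in replicates 1, 2 and 3 of macrophages alone, 8.16, 14.2 and 24.2 CPM with HepG2 and 11.7, 18.3 and 27.4 CPM with Huh6. The groups overlapped. C1QB had 0.56, 0.90 and 1.15 CPM alone, 1.18, 2.29 and 4.01 CPM with HepG2 and 1.61, 2.58 and 5.23 CPM with Huh6. The 3 libraries with either partner lay above the 3 of macrophages alone, but the log2 fold changes (1.49 ± 0.76 and 1.83 ± 0.75) did not pass (adjusted p = 0.18 and 0.32, edgeR). These calls turned with the fit: C1QB with HepG2 passed when only the groups compared were fitted (adjusted p = 0.040), and with no low-count filter C1QB passed with either partner (adjusted p = 0.00059 and 4.11e-05) and C1QC with Huh6 (adjusted p = 0.00080). With the replicate block, C1QB passed with HepG2 and with Huh6 (adjusted p = 0.0061 and 0.0047, edgeR). C1QC then passed with Huh6 against alone (adjusted p = 0.044) and for Huh6 at 10 uM iMDK against untreated (adjusted p = 0.033). What sets replicate 1 apart was not tested. C1QB had at most 86 counts in a library, which limits its precision.

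Of the other complement genes, 17 of 34 passed in macrophages with HepG2, 15 higher and 2 lower, beside 21.6% of all genes. These libraries held the estimated 8.32% to 9.95% of tumour reads, whose part in these genes was not tested. C4BPB, a chain of the C4b-binding protein, was listed at 0 in macrophages alone and reached 11.4 ± 0.90 CPM (SD, n = 3) with HepG2, whose own vehicle libraries held 80.4 ± 5.72 CPM. C8A reached 3.76 ± 0.92 CPM from a listed 0. SERPING1 rose by 1.72 on the log2 scale, from 3.93 ± 0.59 to 13.0 ± 1.94 CPM, beside 6.14 ± 0.41 CPM in HepG2 vehicle libraries. C5AR1 fell by 0.47, on the log2 scale, from 472 ± 9.02 to 340 ± 73.6 CPM. With Huh6, 1 of 34 passed, C4BPB, which is near the 1.83% of all genes. When HepG2 had received 10 uM iMDK, 5 of 34 passed, all lower, beside 3.34% of all genes, with log2 fold changes of -2.09 for C8A and -1.46 for C4BPB.

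Genes whose levels ran most nearly parallel to a component were ranked by the Pearson correlation of log2 CPM over the libraries of a cell type, which share treatment groups. Over the 13 HepG2 libraries C3 went with TGFBR3, DLK1 and SERPINA1 (r from 0.997 to 0.998) and C5 with A2M, LYZ and F10 (0.998 to 0.999). Over the 21 THP-1 libraries C3 went with SEMA6B, ORM1 and AGT (0.972 to 0.985), whereas CFD went with SLC15A3, CALM3 and NUCB1 (0.954 to 0.956). For Huh6 over 18 libraries, C3 went with HMGA2, HSP90B1 and WNT5B (0.989 to 0.996).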

How the data were processed

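Both tables hold whole-number read counts by gene, as the authors deposited them, with no normalization. Per the labels' protocols, poly(A) RNA was sequenced with a directional kit. Per the submitters' processing notes, STAR 2.7.3a, SAMtools 1.16.1, featureCounts and edgeR 3.36 were used on GRCh38. Which gene annotation, featureCounts version and strandedness were used is not given in the sources used here. Members and lists were chosen with earlier results of these data known.

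Tests used edgeR 4.0.16 in R 4.3.3 on the counts: filterByExpr by group, TMM scaling, group means, two-sided quasi-likelihood F test, and Benjamini-Hochberg adjustment over all genes tested at 0.05. Huh6, HepG2 and THP-1 were fitted separately, and differences between lines were fitted on all 31 tumour libraries. The SE is the log2 fold change divided by the square root of F. CPM of single genes are TMM-scaled unless said otherwise, and marker sums are scaled to total counts only. Levels per kb use the union of exons in GENCODE 29, matched by gene identifier for 9 of 9 genes. Promoters are from RefSeq, GRCh38.p14. The tests were checked on simulated counts with the same spread for every gene of a fit and no effect of replicate number. That check does not cover the effect that same-numbered THP-1 libraries shared.

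The 9 members are described throughout. At most 4 other complement genes per comparison are named, those passing with the largest change and a mean log2 CPM of at least 0, and 3 genes by likeness (mean log2 CPM of at least 2). C5AR1, SERPING1 and C4BPA were, where outside that rule, chosen after their values were seen. Alternatives were DESeq2 1.42.0, RLE factors, no low-count filter, only the groups compared, a replicate block, single libraries left out and, for THP-1, subtraction of tumour reads.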

Additional observations from a re-analysis of the deposited data

Results flagged for a closer look

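The difference in response to an inhibitor between HepG2 and Huh6 passed in an edgeR test for 11 combinations of component and dose, MBL2 among them. Values are the log2 fold change in HepG2 minus that in Huh6. At 0.2 uM PKF118-310 they were -2.91 for C5, -2.03 for C3, -4.59 for MBL2 and -1.59 for C1S (4 of 5 tested, beside 49.9% of all genes). At 5 uM iMDK they were 0.37 for C5, 0.96 for C3 and 0.21 for C1S (3 of 5, beside 29.1%). At 10 uM iMDK they were 0.88 for C5, 1.42 for C3, 0.66 for C1S and 0.45 for CFD (4 of 5, beside 36.9%). The MBL2 difference rests on 1 and 7 summed counts in Huh6, where MBL2 did not pass the low-count filter, and is not read as a difference in response. It, C1S at 5 uM and CFD lost their calls in fits that left out single libraries. HepG2 thus had the larger fall of C3 and C5 under PKF118-310 and the smaller fall under iMDK.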

How the results depend on the processing

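In the 15 tumour-line comparisons no alternative moved the number of components called by more than 1.5 times, and the replicate block changed none of these numbers. In 6 of the 8 THP-1 comparisons it moved. This number takes no account of direction. In the other comparisons, HepG2 against alone and HepG2 against Huh6, C3 lost its call after subtraction and C5 passed as lower. With Huh6 against alone, 0 became 3 with no low-count filter, 3 with the replicate block and 2 with tumour reads subtracted and the block, the last chosen after the data were seen. For HepG2 at 5 uM iMDK, 0 became 1 with no filter, with the block, with only the groups compared and with DESeq2, and 2 with subtraction and the block. For HepG2 at 10 uM, 2 became 1 after subtraction (C5, with its direction turned), and leaving out 1 library gave 1 to 2. For Huh6 at 5 uM, 0 became 1 with no filter, and at 10 uM 2 with no filter and 1 with the block. For the difference between partners, 0 became 2 with no filter, 1 with the block and 1 with DESeq2, and leaving out 1 library gave 0 to 1. The cause was not tested.

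C5 reversed after subtraction of tumour reads, without and with the block: log2 fold changes of -0.95 and -0.96 for HepG2 against alone, -1.02 and -1.02 for HepG2 against Huh6, 0.83 and 0.82 at 5 uM iMDK and 1.24 and 1.24 at 10 uM. With the block C1QB passed with either partner (adjusted p = 0.0061 and 0.0047, edgeR), as did CFD and C1QC with Huh6 (adjusted p = 0.0026 and 0.044) and C1QC for Huh6 at 10 uM iMDK (adjusted p = 0.033).

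Same-numbered THP-1 libraries deviated together with a correlation over 0.1 in 43 of 63 pairs of groups, and 19 of 21 libraries went best with their own number; in the tumour lines 0 of 45 and 0 of 18 pairs did. THP-1 libraries thus shared an effect that went with their number. The labels give no shared animal, batch or day, and not every pair was over 0.1. The fit without the block was therefore kept as the main fit, and values from the block are named as such. The main fit leaves the shared effect in the spread of the THP-1 libraries, so a component that did not pass there is not shown to be unchanged. Over all genes the block called 5118 in place of 3354 with HepG2, 4505 in place of 2586 between partners, 927 in place of 283 with Huh6, and 1802 in place of 518 for HepG2 at 10 uM. DESeq2 called 447 with Huh6. With no filter 689 were called with Huh6 and 854 for HepG2 at 10 uM. In the small comparisons edgeR, DESeq2, the block and no filter called 14, 165, 614 and 320 genes (HepG2, 5 uM), 2, 20, 21 and 111 (Huh6, 5 uM), 9, 54, 75 and 167 (Huh6, 10 uM) and 5, 29, 188 and 121 (difference between partners). A count of 0 in a library allows up to 3 counts, 0.15 to 0.24 CPM.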
